A study of Mus musculus with 18 samples.

Results

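The genes described here encode the proteins of the cytosolic ribosome. They were taken by symbol (Rpl or Rps followed by a number, together with Rpsa, Rplp0, Rplp1 and Rplp2, without processed pseudogenes marked as such in the symbol), with 1 symbol per probe set and the brightest probe set of each gene. This gave 67 of the 22180 genes measured, 42 of the large subunit and 25 of the small subunit. Of these, 58 encode canonical ribosomal proteins (35 of 47 of the large and 23 of 32 of the small subunit), 7 are paralogues (Rpl3l, Rpl7l1, Rpl10l, Rpl22l1, Rpl39l, Rps27l and Rps4l), and 2 others (Rpl6l and Rpl32l) match the symbol pattern. RefSeq annotates Rpl6l and Rps4l as pseudogenes. Of the other 21 canonical genes, 12 lay only in probe sets that carry several symbols (Rps2, Rpl10, Rpl13a and Rpl31 among them), 8 were not in the probe table used here, and Fau lies outside the symbol rule.

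The series asked which early expression changes thalidomide, a teratogenic drug that binds the ubiquitin ligase receptor cereblon, brings about in mouse embryonic stem cells that differentiate as embryoid bodies, free-floating aggregates that leave pluripotency. Total RNA from C57BL/6 cells, with no genetic modification named in the labels, was hybridised to 18 Affymetrix arrays. There were 6 groups of 3 biological replicates: exposed cultures given 0.25 mM thalidomide, and controls, each collected at 24, 48 and 72 h. Exposure began on day 3 of the embryoid body stage, per the treatment protocol, which names 0.25% DMSO as the control's vehicle. The series' design text speaks of unexposed controls, however, and hours in the source names of the control samples run from when embryoid bodies formed, so the labels do not settle whether vehicle and stage were matched. A re-analysis tag stands in the titles of 12 arrays (all controls, and exposure of 24 h) and is missing from the other 6 (exposure of 48 h and 72 h). At 48 h and 72 h this tag and the treatment therefore cannot be told apart, whereas all 6 arrays of 24 h carry it.

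A ribosome joins a small subunit, which reads the messenger RNA, and a large subunit, which forms the peptide bond. Most of their proteins are needed in equal numbers, and they are coordinated mainly at translation. Ribosomal protein mRNAs begin with a C followed by a run of pyrimidines (a terminal oligopyrimidine tract). Through this tract the mTOR pathway and the binding protein LARP1 control the use of these mRNAs. Subunit assembly takes place in the nucleolus with a large set of processing factors, and stem cells are known for high ribosome production that changes as they differentiate. Mutations in several of these genes cause Diamond-Blackfan anaemia, and loss of Rpl38 in mice gives skeletal patterning defects.

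The start sites of 7 members that changed with exposure (values below) are shown because this tract is the shared regulatory feature of the family. Each line gives 60 bases, 45 before the RefSeq start and 15 from it, 5′ to 3′ on the gene's strand in assembly GRCm38.p6. Capitals mark the tract, defined as a C followed by at least 4 letters that are each C or T, starting within 5 bases of the start site on the gene's strand. Where several C letters met this definition, the one nearest the start is marked, so the pyrimidine run can begin earlier than the capitals.
Rpl38 (chr11:114668535-114668594, plus strand): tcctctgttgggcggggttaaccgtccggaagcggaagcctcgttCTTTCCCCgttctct
Rps18 (chr17:33955651-33955710, minus strand): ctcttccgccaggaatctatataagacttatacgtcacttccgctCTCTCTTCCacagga
Rpl28 (chr7:4792920-4792979, plus strand): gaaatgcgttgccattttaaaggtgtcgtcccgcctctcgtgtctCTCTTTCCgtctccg
Rplp2 (chr7:141447606-141447665, plus strand): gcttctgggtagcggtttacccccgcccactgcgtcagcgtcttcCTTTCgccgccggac
Rps9 (chr7:3703996-3704055, plus strand): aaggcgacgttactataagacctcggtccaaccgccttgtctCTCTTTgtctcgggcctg
Rps3 (chr7:99483695-99483754, minus strand): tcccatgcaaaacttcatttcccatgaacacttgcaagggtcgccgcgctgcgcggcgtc
Rps15 (chr10:80292386-80292445, plus strand): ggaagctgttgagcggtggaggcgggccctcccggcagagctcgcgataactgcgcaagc

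In Rpl38, Rps18, Rpl28 and Rplp2 the marked C lay at the annotated start, in Rps9 it lay 3 bases before it, and the windows of Rps3 and Rps15 held none by this definition. Rps25 and Rpl39l also changed with exposure and had promoter entries. Neither held a tract at its start, and their sequences are not shown. Of the 67 members, 52 had an entry in the RefSeq promoter table and 15 did not (Rpl3 and Rpl32 among them). A tract was found at a start site of 22 of these 52 genes (42.3%), 13 of 31 of the large and 9 of 21 of the small subunit. The share was 21.2% over all 27025 genes listed there. Counted by promoter, 18.3% of all 32851 held one, against 39.3% of the 61 promoters of the members. With at least 6 pyrimidines after the C the shares were 34.6% of the members (18 of 52) and 7.64% of all genes. With a start up to 20 bases away they were 80.8% of the members (42 of 52) and 53.3% of all genes. A match describes letters at an annotated start and no more. Members with and without the tract had the same median change at 24 h of exposure (-0.13 on the log2 scale for both), and over the control course medians of -0.18 with it and -0.22 without it.

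Most of the genes gave bright probe sets. The mean signal over 18 arrays ran from 3.53 on the log2 scale (Rpl10l, a paralogue known from testis) to 12.53 (Rpl21), and 35 of the 67 lay in the brightest 10% of genes (signal of at least 8.57, where the median of all genes was 5.77). Levels of different probe sets are not amounts of RNA and were not compared as such. The spread among replicates was small: the median SD within groups was 0.09 over the members and 0.13 over all genes, and it was 0.06 for the 35 bright members and 0.15 for the other 32. Several probe sets were named for 25 members, a single one for 42, and 20 members were also named in probe sets with several symbols. These genes have many near-identical pseudogene copies, so a probe set may read more than the gene it is named for.

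After 24 h of thalidomide, 7 ribosomal protein genes fell and 2 rose. Those that fell were Rps18, Rpl32, Rps4l, Rps3, Rps25, Rps9 and Rpl28, and those that rose were Rpl39l and Rpl38. Falls made up 10.4% of the 67 genes against 5.43% of all genes, and rises 2.99% against 1.42% (limma, adjusted p under 0.05 over all 22180 genes). Of the 35 bright members 11.4% fell, against 11.9% of all 2218 genes in the brightest 10%. The share of falls among bright members is therefore close to that of the brightest 10% of genes. The median log2 change of the members was -0.13, that of all genes -0.01 and that of the brightest 10% -0.06, and 51 of 67 members lay below 0. In bulk samples, fewer cells of a type and less RNA per cell cannot be told apart.

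**Figure D1:**
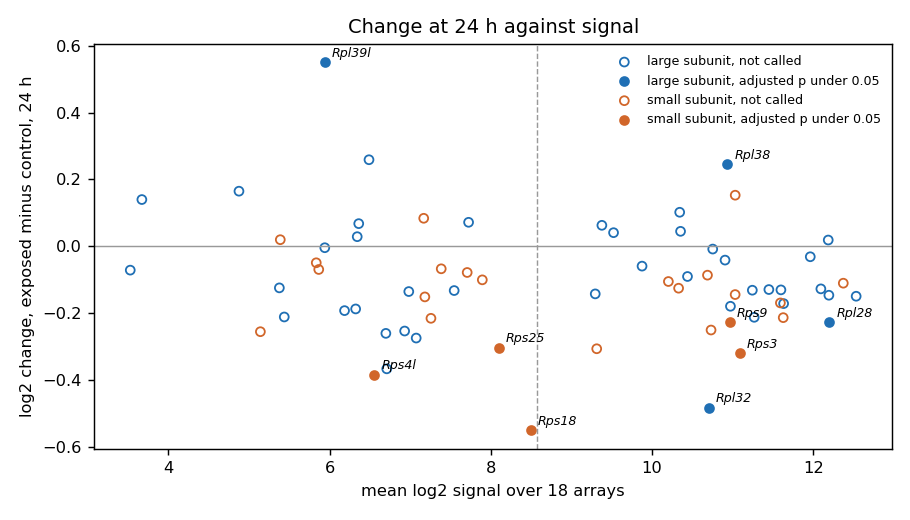
The plot of change at 24 h against signal gives, for each of the 67 genes, the log2 change (exposed minus control) against the mean log2 signal over 18 arrays. Filled points passed an adjusted p under 0.05 and the dashed line marks the brightest 10% of genes; Rpl38 lies above 0 among bright genes that mostly lie below it.

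Rpl32, which encodes a protein of the large subunit, had log2 signals of 11.03, 11.17 and 11.03 in the controls of 24 h and 10.60, 10.62 and 10.56 in the exposed arrays. The groups did not overlap, and the change of -0.48 ± 0.07 (SE), 1.4-fold lower, had an adjusted p of 0.00122 and passed in all 25 alternative settings. Rps3, which lies at the mRNA entry channel of the small subunit, gave 11.21, 11.29 and 11.24 in control and 10.84, 11.04 and 10.90 in exposed arrays. All exposed values of Rps3 were below all controls, with a change of -0.32 ± 0.06 (SE; adjusted p = 0.00562). It passed in 24 of 25 settings.

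Rps18, a protein of the small subunit head next to the large subunit, showed the largest fall among the brightest probe sets of the members. Its brightest probe set had signals of 8.83, 9.0 and 8.91 in control and 8.46, 8.40 and 8.23 in exposed arrays, without overlap, and a change of -0.55 ± 0.11 (SE; adjusted p = 0.00806). The other probe sets of Rps18 were dimmer (means of 5.52 and 5.50) and had changes of 0.19 and 0.01, so the fall rests on the bright one. As the mean of its probe sets Rps18 changed by -0.12 (adjusted p = 0.343). For Rps9, a core protein of the small subunit body, both probe sets fell: the brighter gave 11.12, 11.10 and 11.04 in control and 10.80, 10.93 and 10.85 in exposed arrays (-0.23, adjusted p = 0.029), and the dimmer had a change of -0.28. Some members not called by their brightest probe set had dimmer ones that passed, all lower (limma over all probe sets). These were Rpl4 (-1.02, adjusted p = 0.00115, against 0.02 in the brightest), Rpl13 (-0.59, adjusted p = 0.0216, against -0.21) and Rps12 (-0.24 and -0.23, against -0.17).

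The 3 other falls lay between -0.38 and -0.23 on the log2 scale. Rpl28, among the brightest members, went from 12.34, 12.31 and 12.28 in control to 12.12, 12.10 and 12.02 in exposed arrays (-0.23 ± 0.05, SE; adjusted p = 0.019). Rps25, a head protein used by some viral RNAs for internal initiation, had a change of -0.30 (adjusted p = 0.0291). It passed in 17 of 25 settings and not after cyclic loess. Rps4l, the pseudogene related to Rps4x, had a change of -0.38 (adjusted p = 0.045) that passed in 7 of 25 settings. Exposed arrays lay below all controls for each of these genes.

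Rpl38, a small protein of the large subunit that is known for its part in translating Hox mRNAs, moved the other way. Its signal was 10.90, 10.93 and 10.88 in control and 11.19, 11.17 and 11.09 in exposed arrays of 24 h, a change of 0.25 ± 0.06 (SE; adjusted p = 0.0253). No exposed array overlapped with a control. Rpl38 passed in 20 of 25 settings, with changes from 0.23 to 0.28, and was not called without control replicate 1 or 3 or exposed replicate 1 or 2. Rpl39l, the paralogue of the exit tunnel protein Rpl39 that is known from male germ cells, rose from 5.79, 5.78 and 5.87 to 6.29, 6.27 and 6.53 (0.55 ± 0.12, SE; adjusted p = 0.0134), again without overlap. It passed in 22 of 25 settings, and not without control replicate 1 or exposed replicate 3. Rpl39 itself had a change of -0.19 (adjusted p = 0.272).

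These calls at 24 h varied with single arrays: 3 members (0 up, 3 down) passed without control replicate 1 of 24 h, 5 without control replicate 3, 5 without exposed replicate 1 and 5 without exposed replicate 3, against 9 with all arrays. With an intensity trend and robust eBayes 22 passed, with dim genes (below the median signal) removed 18, and with only the groups compared 2. After cyclic loess between arrays 2 rose and 4 fell and the median was -0.07, while over all genes the balance went from 316 up and 1205 down to 446 up and 598 down.

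**Figure D2:**
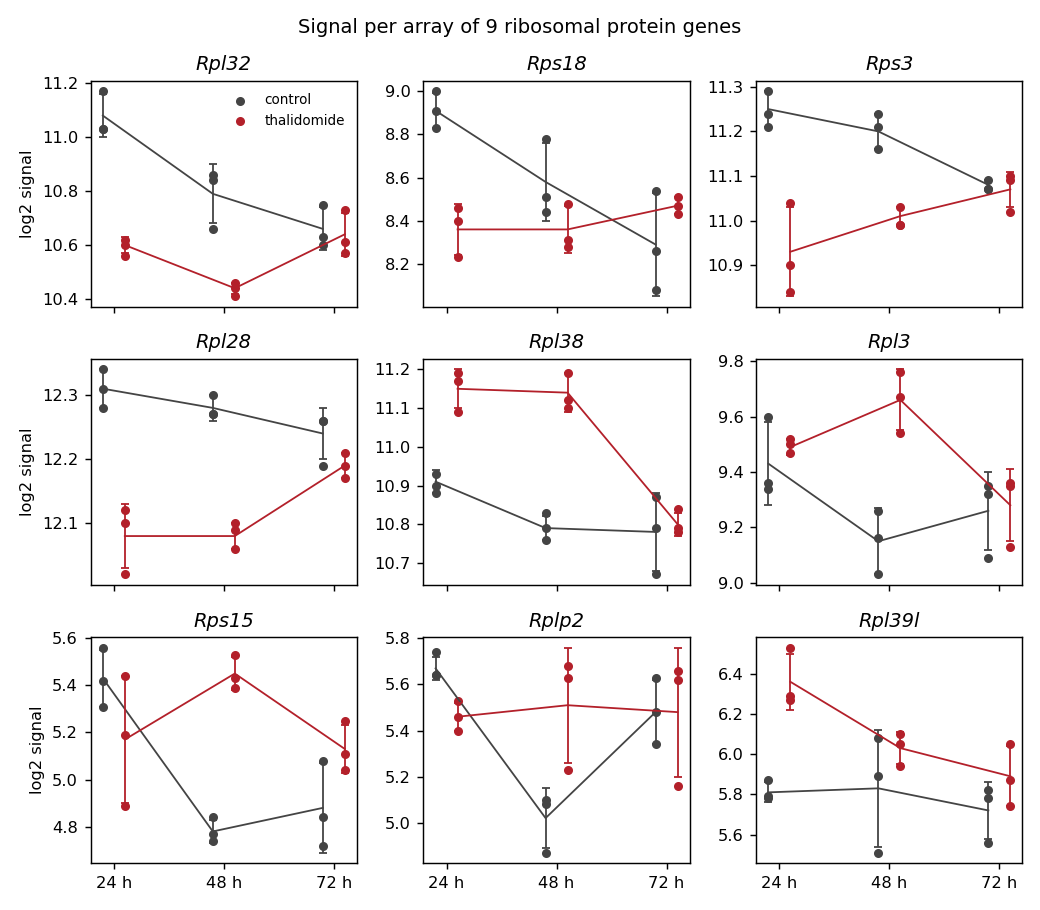
The plot of signal per array gives the log2 signal of 9 members at 24, 48 and 72 h in control (grey) and exposed (red) arrays, with points for arrays, lines through group means and bars for 1 SD (n = 3). Each panel has its own vertical range; in Rpl32, Rps3, Rpl28 and Rpl38 control and exposed values are apart at 24 h and 48 h and overlap at 72 h.

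At 48 h 4 members rose and 2 fell. The count of 6 was 15 with an intensity trend and robust eBayes, and 1 with only the groups compared. Rises were Rps15, Rpl3, Rplp2 and Rpl38, which made up 5.97% of the members against 1.85% of all genes. Falls were Rpl32 and Rpl28, 2.99% against 4.23% of all genes. The median change was -0.05 over the members and 0.01 over all genes, and only the small subunit had a median well below 0 (-0.11, against 0.00 for the large subunit). These medians were not tested.

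Rpl32 and Rpl28 fell again, in arrays other than those of 24 h. Rpl32 gave 10.84, 10.66 and 10.86 in control and 10.41, 10.46 and 10.44 in exposed arrays (-0.35 ± 0.07, SE; adjusted p = 0.0107). Rpl28 gave 12.27, 12.27 and 12.30 in control and 12.10, 12.09 and 12.06 in exposed arrays (-0.20; adjusted p = 0.0387), and passed in 17 of 25 settings. Rpl38 rose again, from 10.79, 10.76 and 10.83 to 11.10, 11.19 and 11.12 (0.35 ± 0.06, SE; adjusted p = 0.00517). In all of these, control and exposed arrays were apart.

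The other rises at 48 h were those of Rps15, Rplp2 and Rpl3. Rps15, a small subunit head protein near the tRNA sites, had a dim probe set with 4.74, 4.77 and 4.84 in control and 5.39, 5.53 and 5.43 in exposed arrays, and a change of 0.67 ± 0.12 (SE; adjusted p = 0.00489) that passed in all 24 settings that kept this dim probe set. Its controls were at 5.31, 5.56 and 5.42 at 24 h and at 5.08, 4.84 and 4.72 at 72 h. Rplp2, an acidic protein of the stalk that recruits elongation factors, gave 5.08, 5.10 and 4.87 in control and 5.68, 5.63 and 5.23 in exposed arrays (0.49; adjusted p = 0.0361; 17 of 24 settings), with controls of 24 h at 5.74, 5.64 and 5.64. Rpl3, which lies near the peptidyl transferase centre, gave 9.16, 9.03 and 9.26 in control and 9.54, 9.76 and 9.67 in exposed arrays (0.51; adjusted p = 0.00689). The other probe sets of Rpl3 had changes of 0.22 and 0.04, neither called, and their mean with the first gave 0.26 (adjusted p = 0.117).

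At 72 h no member passed, and of all genes 0.00902% did (2 genes, limma). An unadjusted p under 0.05 was seen for 2 members, both of the small subunit. Rps23, a decoding centre protein, had the smallest p, with 7.53, 7.55 and 7.45 in control and 7.65, 7.63 and 7.74 in exposed arrays (0.16; adjusted p = 0.418). Although these arrays did not overlap, the adjusted p missed the threshold. For Rpl32 the change was -0.03 ± 0.07 (SE), for Rps3 -0.01, for Rpl28 -0.05 and for Rpl38 0.03. The median was 0.03 over the members (0.02 large, 0.10 small subunit) and 0.00 over all genes, with 50 of 67 above 0.

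**Figure D3:**
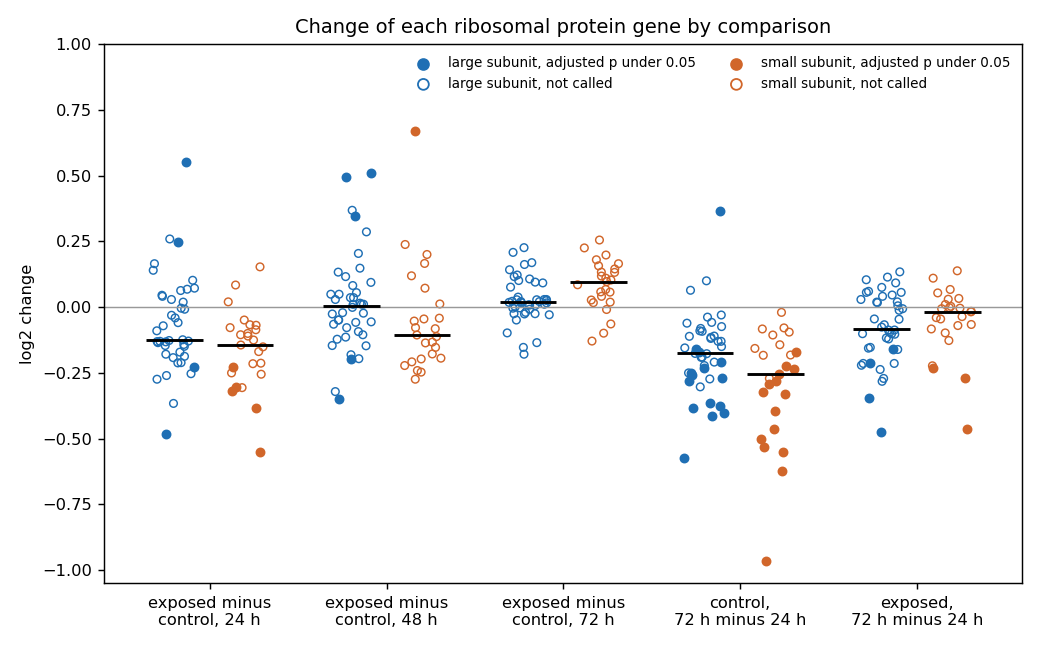
The plot of change by comparison shows the log2 change of each of the 42 large subunit genes (blue) and 25 small subunit genes (orange) in 5 comparisons. Filled points passed an adjusted p under 0.05 and black lines are medians; the medians lie at -0.13 and -0.14 at 24 h of exposure, and at -0.17 and -0.25 over the control course.

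Differences of the exposure effect between times were tested as interactions. Between 24 h and 72 h, Rps18 was the 1 member called (effect at 72 h minus effect at 24 h 0.73 ± 0.16, SE; adjusted p = 0.0496), where 0.496% of all genes were called. In its brightest probe set the change was -0.55 at 24 h, -0.22 at 48 h (not called) and 0.18 at 72 h. A dimmer probe set of Rps18 rose at 48 h (0.39, adjusted p = 0.0355, limma over all probe sets). The interaction call passed in 4 of 24 alternative settings. It was lost after cyclic loess, with the mean of the probe sets (0.13), with array weights, with the replicate block and in 16 of 18 fits that left out 1 array. For Rpl32 the same difference was 0.46 (adjusted p = 0.0558), for Rps3 0.31 (adjusted p = 0.104) and for Rpl7a 0.26 (adjusted p = 0.109). A dimmer probe set of Rpl4, which did not stand for the gene, gave 1.16 (limma over all probe sets, adjusted p = 0.0252), and the brightest gave 0.0. No member's effect was called as different between 24 h and 48 h or between 48 h and 72 h (limma; 5 and 12 members had an unadjusted p under 0.05). For the difference between 24 h and 72 h, 8 members were called with an intensity trend and robust eBayes, and 4 with genes below the median signal removed.

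Over the control course many members fell together. Between 24 h and 72 h, 29 of 67 members fell and 1 rose: 43.3% fell against 14.3% of all genes, and 1.49% rose against 13.1%. Here the share also lay above that of the brightest 10% of genes, with falls in 54.3% of the 35 bright members against 26.9%. Members were not matched to genes of equal signal. The members' median was -0.19 (all genes -0.04, brightest 10% -0.04), and 64 of 67 lay below 0. Without control replicate 3 of 72 h 16 members passed, and without control replicate 1 of 24 h 19, against 30. This comparison and the exposure comparison of 24 h share the control arrays of 24 h, so falls of a gene in both, as in Rpl32 and Rps18, are not separate evidence.

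The fall was seen in both subunits, in 14 of 42 large subunit genes (1 rose) with a median of -0.17, and in 15 of 25 small subunit genes with a median of -0.25. Among canonical proteins alone 13 of 35 and 13 of 23 fell, with medians of -0.19 and -0.24. Members are not replicates, so the difference between subunits was not tested. By place on the ribosome, 6 of 11 measured proteins of the small subunit head and 7 of 12 of its body and platform fell. Of the large subunit, 4 of 7 around the exit tunnel, 1 of 3 of the stalk (Rplp1, -0.26) and 1 of 2 of the 5S particle (Rpl5, -0.38) fell. Rpl11, the partner of Rpl5 in the particle that inhibits Mdm2, had a change of 0.10 (adjusted p = 0.604). Of 10 measured genes linked to Diamond-Blackfan anaemia 7 fell, among them Rps19 (-0.25, adjusted p = 0.00803), Rps7 (-0.40) and Rps10 (-0.33).

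Rps4l had the largest fall, from 7.03, 7.14 and 7.23 at 24 h to 6.48, 6.66 and 6.61 at 48 h and 6.38, 6.13 and 6.01 at 72 h (72 h minus 24 h -0.96 ± 0.11, SE; adjusted p = 4.46e-06). Its control arrays of the 3 times did not overlap. Rps18 had a change of -0.62 (adjusted p = 0.000419), again only in its bright probe set (0.24 and -0.07 in the others). Rpl37a, a zinc-binding protein of the large subunit, fell from 7.15, 7.20 and 7.38 to 6.49, 6.86 and 6.66 (-0.57 ± 0.10, SE; adjusted p = 0.000348). Rps3a1, which lies at the mRNA exit side, gave 11.04, 10.90 and 11.11 at 24 h, 10.84, 11.01 and 10.91 at 48 h, and 10.63, 10.40 and 10.43 at 72 h (-0.53; adjusted p = 9.32e-05). For Rps3a1 the step from 48 h to 72 h passed (-0.43, adjusted p = 0.00306) and that from 24 h to 48 h did not (-0.10, adjusted p = 0.485). Rps15 had a change of -0.55 (adjusted p = 0.00204) that was already reached at 48 h (-0.65, adjusted p = 0.00125).

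By steps, 7 members fell from 24 h to 48 h (10.4%, against 6.70% of all genes) and 3 fell from 48 h to 72 h (4.48%, against 2.90%), while Rplp2 first fell and then rose again by 0.47 (log2; adjusted p = 0.0425). The sole rise over the whole control course was that of Rpl22l1, a paralogue of Rpl22 known from lymphocyte development. It gave 6.34, 6.18 and 6.17 at 24 h and 6.60, 6.68 and 6.50 at 72 h (0.36; adjusted p = 0.0389; 20 of 25 settings), while Rpl22 had a change of -0.06 (adjusted p = 0.527).

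**Figure D4:**
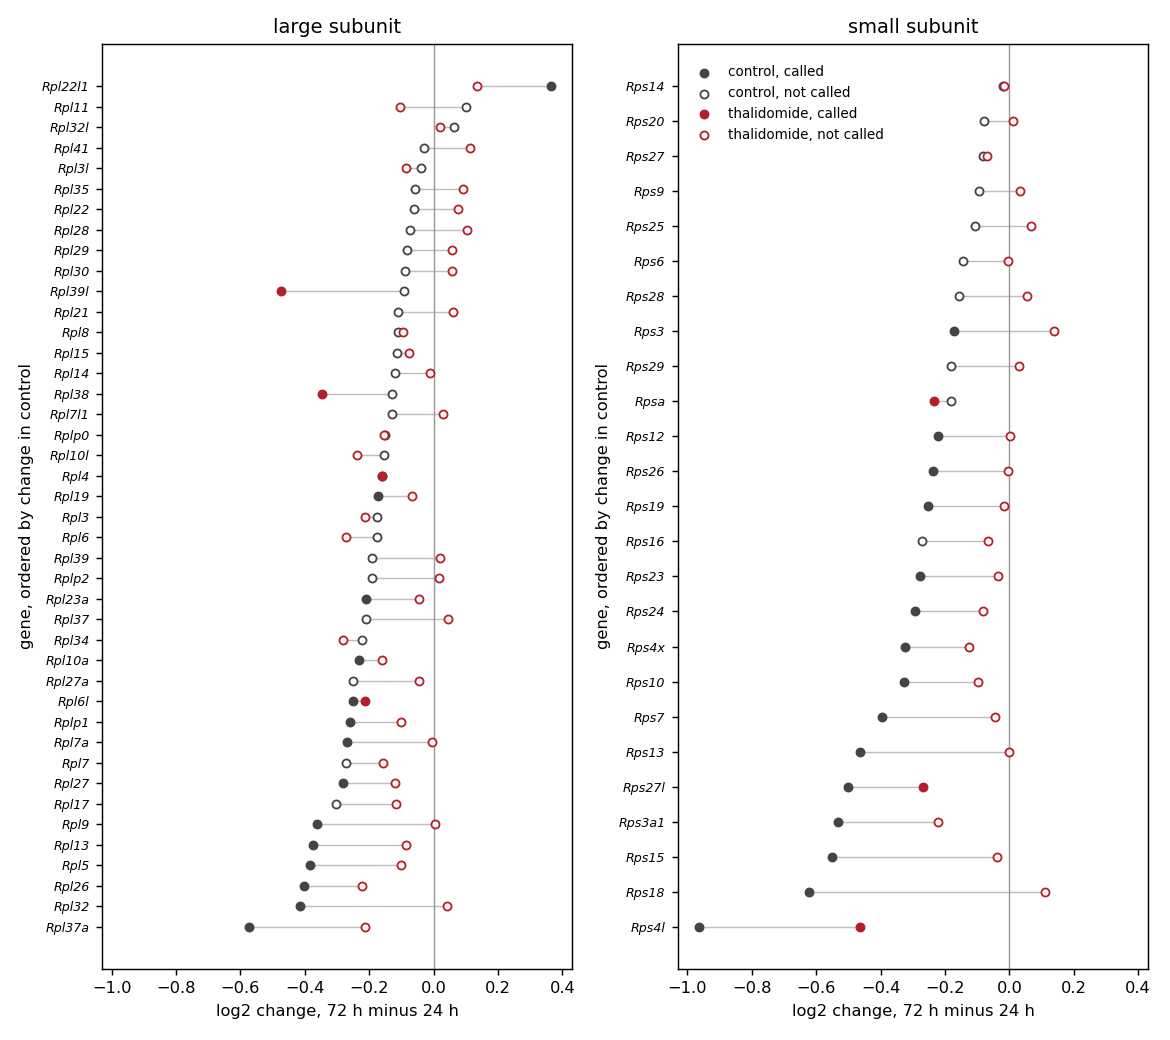
The plot of the control and exposed courses gives the log2 change from 24 h to 72 h of each member in control (grey) and exposed (red) arrays, by subunit, ordered by the control change. Filled points passed an adjusted p under 0.05, and grey lines join both values of a gene; 29 grey and 7 red filled points lie below 0.

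By their brightest probe sets, 7 members changed over the exposed course, all downward. From 24 h to 72 h of thalidomide 7 members fell and 0 rose (10.4% and 0%, against 10.6% and 14.4% of all genes), a share of falls close to that of all genes, with a median of -0.05 (all genes -0.03). Without exposed replicate 3 of 24 h, and likewise without exposed replicate 2 of 72 h, 4 members passed. After cyclic loess 4 rose and 7 fell. Rpl4 was among the falls (-0.16, adjusted p = 0.048), but its dimmer probe set rose (0.75, adjusted p = 0.00146, limma over all probe sets). Dimmer probe sets of Rpl29 (-0.37, adjusted p = 0.00464) and Rps24 (-0.56, adjusted p = 0.000722) passed lower in the same fit. The exposed arrays of 24 h were already lower, as given above, and the control and exposed courses share no array. By gene, the difference between the courses is the interaction given above. The exposed arrays of 24 h have the re-analysis tag in their titles and those of 48 h and 72 h do not, so tag and time cannot be told apart in this course, and the tag enters the differences between the effect at 24 h and the later effects. Rpl38, which had been high at 24 h and 48 h of exposure, fell to 10.84, 10.79 and 10.78 at 72 h, and by test between 48 h and 72 h (-0.34 ± 0.06, SE; adjusted p = 0.00281). Rpl39l had a change of -0.47 (adjusted p = 0.00883) and Rps4l one of -0.46 (adjusted p = 0.00494). Rpsa, the laminin-binding protein of the small subunit, gave 11.20, 11.16 and 11.19 at 24 h and 10.96, 10.85 and 11.04 at 72 h of exposure (-0.23; adjusted p = 0.0242; 19 of 25 settings). Rps27l, a p53-responsive paralogue of Rps27, fell in both courses, by 0.50 in control (adjusted p = 1.88e-05) and by 0.27 in exposed arrays (adjusted p = 0.00592). Rps27 had changes of -0.08 and -0.07. Step by step, 2 members fell from 24 h to 48 h of exposure (2.99%, against 4.36% of all genes) and 3 from 48 h to 72 h (4.48%, against 3.76%).

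**Figure D5:**
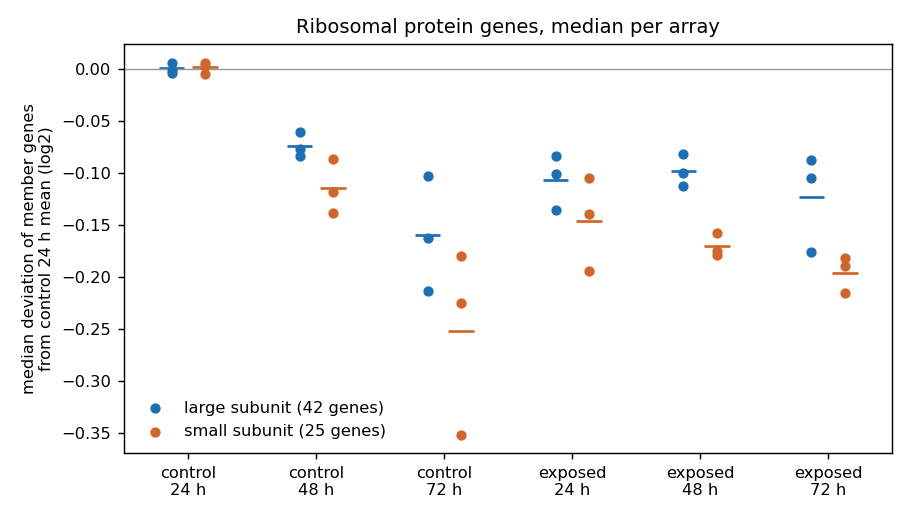
The plot of medians per array gives, for each of 18 arrays, the median log2 deviation of the large (blue) and small (orange) subunit genes from the mean of the control arrays of 24 h, with bars for group means. By construction the controls of 24 h lie at 0; the other groups lie below it, and the small subunit medians of the controls of 72 h reach from -0.35 to -0.18.

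Per array, the median deviation of the 67 members from the control mean of 24 h was -0.14 to -0.10 at 24 h of exposure, -0.10 to -0.06 in the controls and -0.14 to -0.12 in the exposed arrays of 48 h. At 72 h it was -0.26 to -0.13 in the controls and -0.19 to -0.13 in the exposed arrays. Control and exposed arrays were thus apart at 24 h and 48 h and overlapped at 72 h. The same was seen over all genes in the brightest 10%, where the medians were -0.019 to 0.014 in control and -0.104 to -0.04 in exposed arrays of 24 h, and -0.024 to -0.018 and -0.074 to -0.03 at 48 h. At 72 h they were -0.062 to -0.026 and -0.081 to -0.036. At every time and treatment after the reference the group mean of the small subunit lay lower than that of the large subunit (-0.15 against -0.11 at 24 h of exposure, and -0.25 against -0.16 in the controls of 72 h). All of these share the control arrays of 24 h as reference, so they are not separate evidence. In comparisons without those arrays the order varied. The small subunit median was lower with exposure at 48 h (-0.11 against 0.00). It was higher with exposure at 72 h (0.10 against 0.02) and over the exposed course (-0.02 against -0.08). The spread between arrays was largest in the controls of 72 h (SD 0.07 over the members).

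Paralogues were set beside their partners. Of the 7 paralogues measured, Rpl39l rose and Rps4l fell at 24 h, and none passed at 48 h or 72 h. Rpl3l, known from skeletal muscle and heart, was dim (4.87, 4.93 and 4.69 in the controls of 24 h) and had a change of 0.37 at 48 h (adjusted p = 0.072), when that of Rpl3 was 0.51. Rpl7l1 and Rpl7 had changes of -0.13 and 0.04 at 24 h, with adjusted p-values of 0.533 and 0.867. Rps4x, the functional partner of Rps4l, had one of -0.09 (adjusted p = 0.486) at 24 h and one of -0.32 over the control course (adjusted p = 0.00104). The remaining stalk and signalling proteins did not pass with exposure: Rplp0 and Rplp1 had changes of 0.04 and -0.13 at 24 h, and Rps6, the S6 kinase substrate, one of -0.11 (adjusted p = 0.272).

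Genes that make or use ribosomes were read from lists chosen beside the family. Of 39 measured ribosome biogenesis factors 12 fell and 0 rose at 24 h (median -0.14), 4 fell and 2 rose at 48 h, and none passed at 72 h. The falls at 24 h were 30.8% of the list, against 5.43% of all genes and 11.9% of the brightest 10%. At 48 h 10.3% fell and 5.13% rose, against 4.23% and 1.85% of all genes and 8.66% and 2.25% of the brightest 10%. The share of falls at 48 h was thus close to that of the brightest 10%. The largest falls at 24 h were those of Rrp9, a component of the U3 particle that cleaves ribosomal RNA (-0.53, adjusted p = 0.00186), Nop2, a ribosomal RNA methyltransferase (-0.44, adjusted p = 0.00217), and Nob1, the nuclease that finishes 18S RNA (-0.42, adjusted p = 0.0029). Rrp9 gave 7.97, 8.11 and 8.16 in control and 7.54, 7.51 and 7.60 in exposed arrays. Over the control course 38 of 39 of these factors fell (97.4%, median -0.39), against 14.3% of all genes and 26.9% of the brightest 10%. Over the exposed course 20 fell (51.3%, median -0.20), against 10.6% of all genes and 17.5% of the brightest 10%.

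Of 12 genes of RNA polymerase I and its factors, which transcribe ribosomal RNA, 4 fell and 1 rose at 24 h (33.3% and 8.33%, against 5.43% and 1.42% of all genes). Polr1d, a subunit shared with polymerase III, gave 8.57, 8.45 and 8.54 in control and 7.98, 7.98 and 8.18 in exposed arrays (-0.47; adjusted p = 0.00109), and fell again at 48 h (-0.35, adjusted p = 0.00821). Taf1b had a change of -0.52 (adjusted p = 0.0133) and Taf1a one of -0.43 (adjusted p = 0.0194) at 24 h. Of 17 translation factors 1 fell at 24 h (Eef1b2, -0.27, adjusted p = 0.0177) and 1 at 48 h (Eif3k, -0.29, adjusted p = 0.0267). At both times this was 5.88% of the list, close to the share of all genes that fell (5.43% at 24 h and 4.23% at 48 h). Over the control course 8 of 17 translation factors (47.1%) and 9 of 12 polymerase I genes (75.0%) fell, against 14.3% of all genes.

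Among 11 regulators of growth, 2 fell at 24 h (18.2%, against 5.43% of all genes and 11.9% of the brightest 10%), and the median of the list was 0.02. Myc, a transcription factor that drives ribosome production, gave 8.43, 8.44 and 8.25 in control and 7.85, 7.98 and 7.90 in exposed arrays (-0.46; adjusted p = 0.0105), and Rheb, the activator of mTORC1, had a change of -0.35 (adjusted p = 0.00561). Mycn had one of 0.31 (adjusted p = 0.0706). Exposed and control arrays of 24 h did not overlap for Myc.

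Some ribosomal protein genes carry small nucleolar RNAs, guides of ribosomal RNA modification, in their introns. By position in RefSeq, 13 measured ones lay inside 12 members. At 24 h their median change was 0.27, 2 rose and 0 fell, whereas their hosts had a median of -0.18 with 0 up and 2 down. All 81 measured small nucleolar RNAs had a median of 0.21, and 16 rose. These counts stand beside 1.42% of all genes that rose at 24 h and 5.43% that fell. Snora7a, inside Rpl32, had a change of 0.03 (adjusted p = 0.86) where Rpl32 fell. Snora33, inside Rps12, had a change of 0.30 (adjusted p = 0.0409), and Rps12 had a change of -0.17 (adjusted p = 0.071). Snord83b, inside Rpl3, had a change of 0.49 (adjusted p = 0.0422), and Rpl3 one of 0.06 (adjusted p = 0.777). These pairs were chosen after their values were seen.

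Markers of pluripotent cells differed among themselves. All 12 of 12 were measured, and the median of the list was 7.10 in the controls and 6.76 in the exposed arrays of 24 h, 6.20 and 6.40 at 48 h, and 5.60 and 5.81 at 72 h. Between the controls of 24 h and 72 h the means of 9 were lower, of 2 higher and of 1 equal: Nanog went from 9.13 to 4.82, whereas Sox2 went from 7.92 to 8.96 and Lin28a from 9.13 to 9.23. With exposure at 24 h, 6 of the 12 means were higher and 6 lower than in control. The ranges of the list's median per array were 6.95 to 7.27 and 6.70 to 6.80 at 24 h, so control and exposed arrays were apart there too. Of fibroblast markers 8 of 8 were measured, with list medians from 5.88 to 6.39 over the groups. Of these markers 7 of 8 means were higher with exposure at 24 h. Pdgfrb, however, went from 6.10 in control to 5.86 in exposed arrays, and the list median from 6.04 to 5.96. At 72 h all of the means were lower in exposed than in control arrays, with list medians of 6.04 and 6.39. Between the controls of 24 h and 72 h 7 of 8 means were higher at 72 h: Lum went from 3.74 to 6.54, Pdgfrb went from 6.10 to 8.16 and Dcn went from 4.23 to 5.44. Of blood markers 6 of 8 were measured, with list medians from 4.76 to 5.18. Log2 array signals have no zero, and the lowest blood marker lay at 2.88 to 3.06. The part of cell composition in the changes of the ribosomal protein genes was not tested.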

How the data were processed

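The members and gene lists were chosen with earlier results of these data known. Signals were deposited on a log2 scale for each probe set of each array. Per the submitters' processing notes, the authors computed them by RMA, robust multi-array averaging, with version 1.3 of Affymetrix Expression Console. RMA quantile-normalizes arrays, so a shift of most transcripts would not be seen. No build of the array design is stated in these sources, and no background or detection values were used.

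Of 41345 probe sets 23521 had a single symbol and 1814 several, which were named after none of them; 16010 were not named. The brightest probe set stood for each of 22180 genes. A linear model of 6 group means over the 18 arrays was fitted by limma 3.58.1 (R 4.3.3; eBayes, two-sided tests, 12 residual degrees of freedom), with Benjamini-Hochberg adjustment within each contrast and a threshold of 0.05. All adjusted p-values are limma's. The script was tested on simulated data. The number of arrays limits the precision, and p-values measure the spread between these biological replicates. Within groups arrays correlated at r = 0.992 to 0.996.

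Alternatives were cyclic loess, the mean of a gene's probe sets, genes at or above the median signal, an intensity trend with robust eBayes, array weights, a fit of the compared groups alone, the replicate number as a block, and each array left out. Named in each comparison were the 5 called members with the largest rise and the 5 with the largest fall, or the smallest p where none was called. Also named were the paralogue pairs, Rpsa, Rplp0, Rplp1, Rplp2, Rpl5, Rpl11, Rps6, Rps19, Rpl38, Rpl32 and Rps3, the 4 smallest adjusted p per interaction, up to 3 called genes per related list, and Myc and Mycn. Other genes named were chosen after their values were seen. Promoter sequences are RefSeq's (GRCm38.p6), matched by symbol. Python 3.11.15 and pandas 2.3.3 made the tables.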

Additional observations from a re-analysis of the deposited data

Results flagged for a closer look

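The effect of exposure on Rps18 differed between 24 h and 72 h by an interaction test: the effect at 72 h minus that at 24 h was 0.73 (limma, adjusted p = 0.0496, 1 of 67 members). Control arrays of Rps18 went from 8.83, 9.0 and 8.91 at 24 h to 8.54, 8.26 and 8.08 at 72 h, and exposed arrays from 8.46, 8.40 and 8.23 to 8.51, 8.43 and 8.47. Its other probe sets gave differences of -0.26 and -0.09 (adjusted p = 0.476 and 0.842), and the call passed in 4 of 24 alternative settings. The dimmest of its probe sets rose with exposure at 48 h (0.39, adjusted p = 0.0355, limma over all probe sets).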

How the results depend on the processing

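Counts of members called are given against 9 at 24 h, 6 at 48 h, 0 at 72 h, 30 over the control course, 7 over the exposed course and 1 for the effect at 72 h minus that at 24 h. With genes at or above the median signal 18 were called at 24 h and 4 for the difference of effects. With an intensity trend and robust eBayes the numbers were 22 at 24 h, 15 at 48 h, 13 over the exposed course and 8 for the difference of effects. With only the groups compared they were 2, 1, 18 over the control course and 3 over the exposed course. Cyclic loess gave 11 over the exposed course, and 0 for the difference of effects, as did the mean of probe sets, array weights and the replicate block. Leaving out 1 array gave 3 to 9 at 24 h, 4 to 8 at 48 h, 0 to 0 at 72 h, 16 to 31 and 4 to 8 over the control and exposed courses, and 0 to 1 for the difference of effects. Dropping the 2 annotated pseudogenes, an alternative chosen after seeing the data like all those of the difference of effects, gave 8, 6, 0, 28, 5 and 1.

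The median change at 24 h (-0.127) was -0.071 after cyclic loess, -0.11 with the mean of probe sets and -0.106 with array weights, and over the control course (-0.19) it was -0.138 after cyclic loess. With 1 array left out these medians ran from -0.134 to -0.102 and from -0.242 to -0.162, and those at 48 h, at 72 h and over the exposed course from -0.05 to -0.037, 0.012 to 0.066 and -0.065 to -0.019. The large minus small subunit median at 48 h was 0.11, and 0.082 for canonical proteins only; over the control course these were 0.08 and 0.046. Tracts within 20 bases were found in 80.8% of members. The causes of these shifts were not tested.

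Replicate numbers did not pair the samples: over 45 pairs of groups and numbers, deviations of same-numbered arrays correlated at -0.16 to 0.127, above 0.1 in 3. The replicate block called 8, 5, 0, 28 and 6 members in the 5 comparisons. Single genes under alternatives gave 718 values, only for members in comparisons where a call or a small p had named them. Of these values 0 reversed a sign, 88 lost a call and 6 gained one. As such members were picked for their change, a reversal was unlikely from the start. No background values were used, which limits the dim Rps15, Rplp2, Rpl3l and Rpl10l.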
